A study of Macaca mulatta with 22 samples.

Results

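Kinesins are motor proteins that walk along or take apart microtubules, and tubulins are the subunits from which microtubules are built. The genes described here are the entries of the expression table whose gene symbol starts with KIF followed by a digit or C, or with TUBA, TUBB, TUBD, TUBE or TUBG. Of 35468 entries, 87 have such a symbol, and 58 of these (50 symbols) reached at least 1 RPKM (read count scaled by transcript length and by library size) in at least 2 of 22 libraries. They are 35 of 58 kinesin entries and 23 of 29 tubulin entries, the latter including the TUBGCP genes, which code for proteins of the gamma tubulin complex and not for tubulins. The rule looked at symbols and at this detection limit, not at any difference between stages. The series is RNA-seq of single rhesus macaque (Macaca mulatta) oocytes and preimplantation embryos, with each library made from 1 oocyte or 1 whole embryo. The 7 oocyte libraries, collected after the death of superovulated donors, are 2 at the germinal vesicle stage (GV), 2 at metaphase I (MI) and 3 at metaphase II (MII). The 15 embryo libraries, from eggs fertilised by sperm injection into the cytoplasm and then cultured, cover the pronuclear (3 libraries), 2-cell (2), 4-cell (3), 8-cell (2), morula (3) and blastocyst (2) stages. No group carries an altered allele or a drug treatment in the labels, and no strain, age or donor is named, so some libraries may share a donor and p-values measure the spread between single oocytes or embryos.

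A microtubule is a tube of alpha and beta tubulin pairs. It starts from rings of gamma tubulin held by the TUBGCP proteins, and delta and epsilon tubulin serve the triplet microtubules of centrioles. In the oocyte the meiotic spindle forms without centrioles and stays small and close to the cell surface, while the first cleavage divisions take place in a large cytoplasm. Kinesins of the spindle push poles apart (KIF11, KIF15), shorten microtubule ends (KIF2A, KIF2C, KIF18A), move chromosome arms (KIF4A, KIF22), pull minus ends together (KIFC1) or build the midbody that separates daughter cells (KIF14, KIF20A, KIF20B, KIF23). Other kinesins carry vesicles, organelles and RNA (KIF5B, KIF3A and KIF3B, KIF13B) or act in cilia (KIF6, KIF9, KIF27). TUBB8 is the beta tubulin of primate oocytes, and mutations in the human gene stop oocyte maturation.

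Several entries need care over what they measure. TUBB8 is entry IMMRNTR5601 on chromosome 9 (24654 to 41510, positions as deposited, build Mmul_8.0.1 per the submitters' processing notes), and its name comes from the file alone. The entry ENSMMUG00000012164 on chromosome 15 (999182 to 1001592) is called TUBB1 in the name table, but the file describes it as a beta-2C chain, an older name of TUBB4B. It shares 22 of 26 named neighbouring genes with TUBB4B in the RefSeq gene table and 0 with TUBB1, so it is printed by its identifier. TUBA1A (ENSMMUG00000021081, chromosome 11, 46254769 to 46314192) is described in the file as alpha-1B, so both genes may be read there. TUBA1C (ENSMMUG00000009788, chromosome 11, 46397739 to 46401233) lies in the same cluster, and reads of these nearly identical genes can be split between entries. TUBG1 is called TUBG2 in the file and shares 21 of 23 neighbours with both. The second entries named KIF11 (IMMRNTR4312, 798 bp) and KIF20B (IMMRNTR4257), the KIF21B entry IMMRNTR1616, the second TUBB entry (ENSMMUG00000030028) and TUBA3E (ENSMMUG00000021159) share 0 neighbours with the gene they are named for. The entry called TUBA8 in the name table (ENSMMUG00000013574) is TUBA3D in the file and shares 3 of 16 neighbours with TUBA8, and TUBA3C shares 6 of 15 with TUBA3E, so neither name is sure. Of the 29 entries that did not pass, 9 were at 0 in every library and 3 reached 1 RPKM in 1 library, the highest at 2.08 RPKM. TUBB2B and TUBB4A are among them, and TUBB2A, TUBB4B and TUBA1B have no entry under those symbols. Nearest the detection limit, the second highest value was 0.751 RPKM for TUBGCP6 and 0.71 for KIF5C, both left out, and 1.05 for both KIFC3 and KIF9 (IMMRNTR5537), both kept.

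Estimated depth was 5.48 to 20.98 M reads per library, lowest in 8-cell library 2. Morula library 2 stood apart with 4277 entries at 1 RPKM or more, against 6763 to 10017 in the other 21 libraries. It was the lowest of the 3 morulae for 34 of the 58 members, a count not made over all features and so not read as particular to them. Without morula library 2, 5 of the members' calls in 6 comparisons were lost and 19 were added, each given beside its gene. Summed oocyte markers (10 of 10 genes, led by zona pellucida genes) ranged from 936 to 6143 RPKM in oocytes and from 2.75 to 7.34 in blastocysts. Summed trophectoderm markers, 8 genes of which 6 reached 1 RPKM, were 1017 to 1298 RPKM in blastocysts and 11.5 to 181 before, with KRT8 and TEAD3 near 0 throughout. Most of the blastocyst sum was KRT18 (mean 1043 RPKM), and GATA2, GATA3 and DAB2 were also highest there. CDX2 went the other way, with means of 7.23 RPKM at GV and 1.50 in blastocysts. TFAP2C was at 55.5 RPKM in morulae and 28.2 in blastocysts. Among 15 cumulus and granulosa markers, 8 reached 1 RPKM and 3 (AMH, FOXL2 and PTX3) were at 0 in every library. Their sum was 29.0 to 112 RPKM in oocytes, mostly TNFAIP6, and 32.5 to 75.6 in blastocysts, mostly CYP11A1. Whether cells around the oocyte had a part in any result below was not tested. In a whole embryo, fewer cells of a type and less RNA per cell cannot be told apart.

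Most members differed between stages, and the share called in each step lay near that of all features. The test was limma on log2(RPKM + 1) over all 22 libraries, with p-values adjusted over the 14312 features tested and a call at an adjusted p under 0.05. An F test over the 9 stages called 43 of the 58 members (74.1%), against 68.3% of all features. From GV to MII, maturation of the oocyte, 0 members were higher and 3 lower, against 0.342% and 8.97% of all features (unadjusted p under 0.05: 4 higher and 8 lower). From MII to the 4-cell embryo, before the main activation of the embryo's genome, 1 was higher and 4 lower, against 3.11% and 6.09%. From the 4-cell to the 8-cell stage, when the embryonic genome is activated in this species, 11 were higher and 5 lower, against 13.9% and 10.2%. The summed level of 6 genome activation markers was 43.8 to 83.7 RPKM at the 4-cell and 6470.1 to 8138 at the 8-cell stage. From the 8-cell stage to the morula 2 were higher and 13 lower, against 5.39% and 20.0%, and from morula to blastocyst 5 were higher and 1 lower, against 12.0% and 2.12%. Between the oocyte (mean of GV, MI and MII) and the blastocyst, 9 were higher and 21 lower, against 17.7% and 27.2%.

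**Figure D1:**
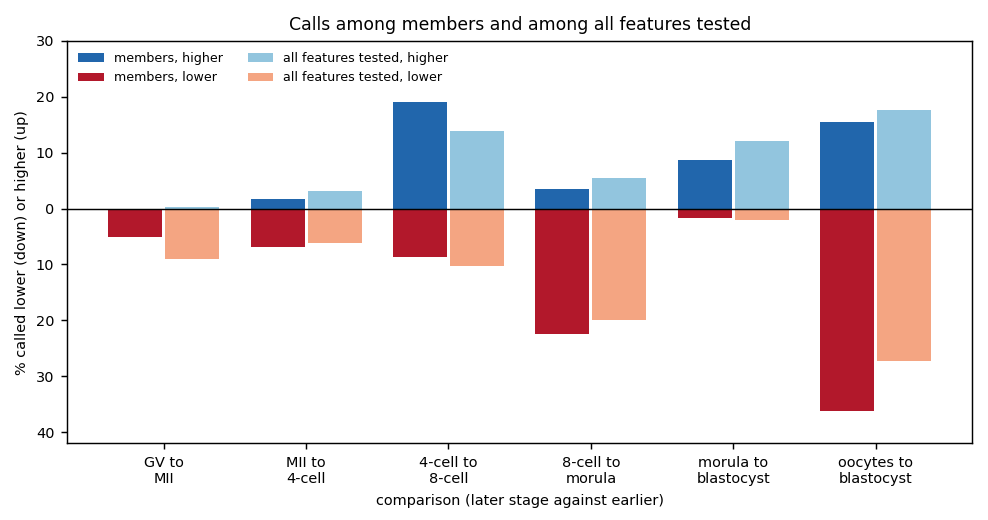
Percent of the 58 kinesin and tubulin entries (dark bars) and of all 14312 features tested (light bars) called higher (upward) or lower (downward) at the later stage of 6 comparisons, limma adjusted p under 0.05. The members' bars lie near those of all features, with the widest gap in the oocyte to blastocyst comparison, where 36.2% of members and 27.2% of all features were lower.

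The median log2 change of the members was -0.20, -0.28, 0.06, -0.60, 0.58 and -0.48 in these 6 comparisons, in the same order, against -0.19, -0.02, 0.00, -0.38, 0.23 and -0.26 for all features. Median-of-ratios scaling moved the medians of all features to -0.05, 0.01, 0.05, -0.25, 0.07 and 0.00 (log2). Under that scaling the calls among all features were 55 higher and 546 lower from GV to MII (unscaled 49 and 1284), 511 and 490 from MII to 4-cell (445 and 871), and 2204 and 1200 from 4-cell to 8-cell (1989 and 1453). They were 1258 and 2813 from 8-cell to morula (unscaled 771 and 2865), 1469 and 660 from morula to blastocyst (1721 and 303), and 3065 and 2739 from oocyte to blastocyst (2531 and 3891). Members called under scaling in the last 2 were 3 higher and 3 lower, and 10 higher and 12 lower. Without scaling, of 15 spindle and cytokinesis kinesin entries 1 was higher and 10 lower from oocyte to blastocyst. Of 14 cargo kinesin entries 1 and 5, of 6 cilium and other kinesin entries 0 and 2, of 8 alpha tubulins 2 and 3, and of 6 beta tubulins 5 and 1. The second TUBB entry is 1 of these 5. It passed the detection limit through morula and blastocyst libraries alone. ENSMMUG00000012164, TUBB3, TUBB6, TUBA3E and KIF21A passed it only through libraries from the 8-cell stage on. Calls of these entries as higher than at earlier stages are given as descriptions. KIF6, KIF13A, TUBAL3, KIF21B (IMMRNTR1616) and the second KIF11 and KIF20B entries passed the detection limit only through libraries up to the 8-cell stage. KIF1C (IMMRNTR6103) passed it only through oocyte and pronuclear libraries, and the second KIF9 entry through GV, MI and 2-cell libraries. Calls of these as lower at stages where they stayed below the limit are counted but are likewise descriptions. Scaling left 3 of the 10 spindle kinesin entries lower (KIF4A, KIF20B and its second entry), 4 of the 5 cargo kinesin entries and 1 of the 2 cilium and other entries, and did not change the alpha and beta tubulin counts. None of the 6 gamma tubulin and TUBGCP entries and none of the 3 delta and epsilon tubulin entries was called by limma in that comparison, with 1 of these 9 at an unadjusted p under 0.05. Whether the roles differ from each other was not tested.

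**Figure D2:**
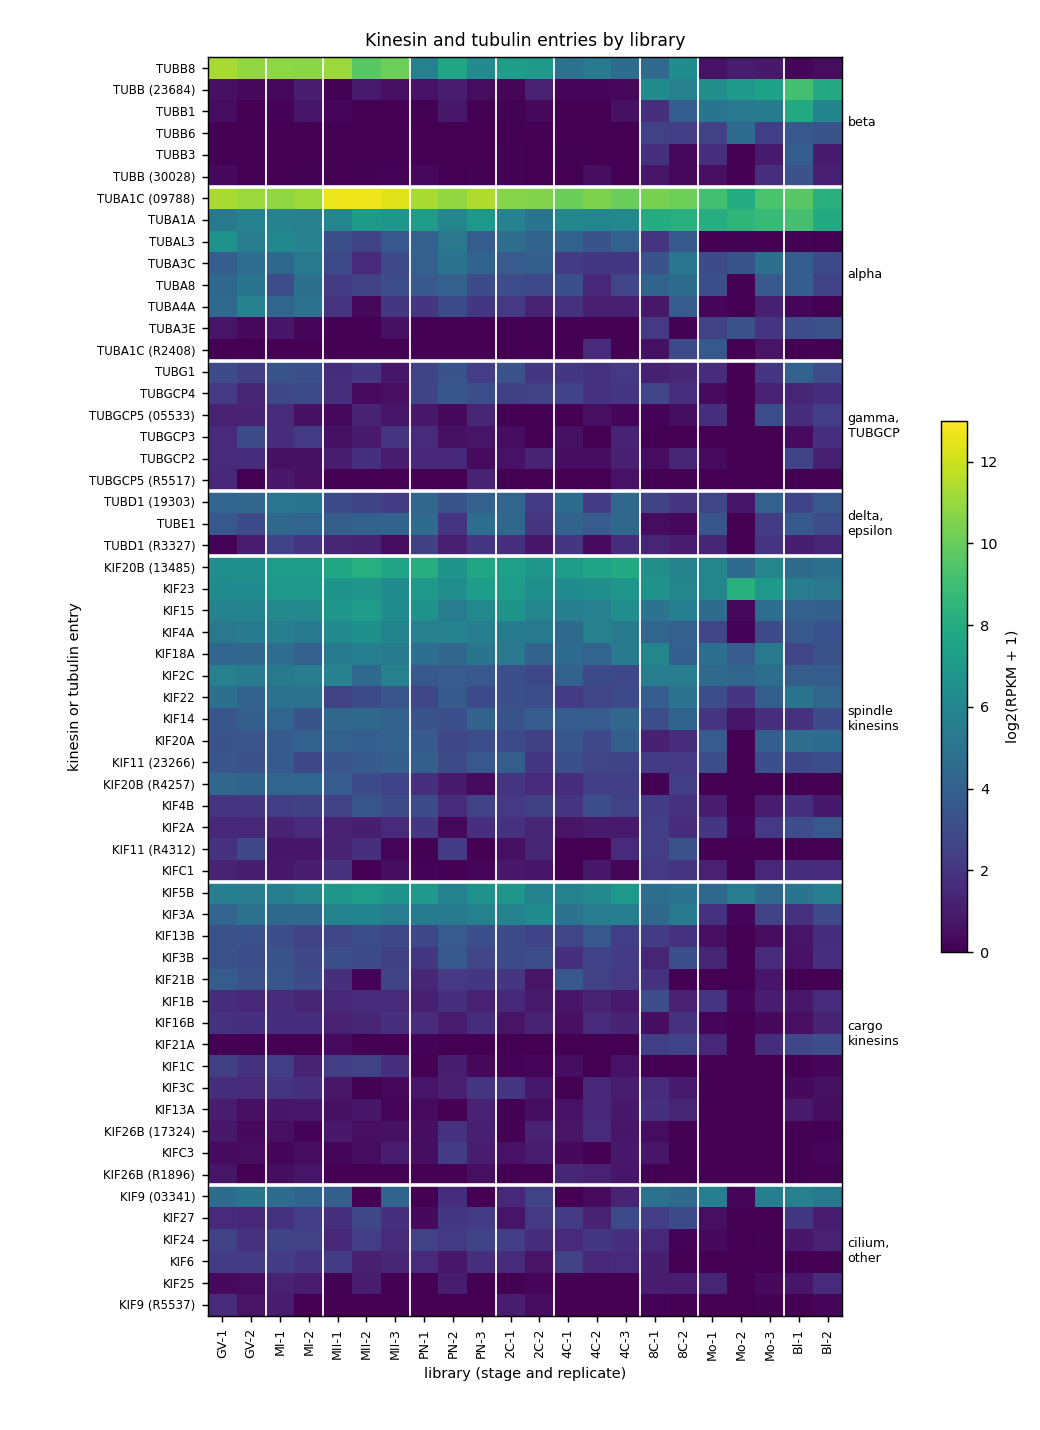
Level of each of the 58 entries (rows, grouped by role and ordered by mean level) in each of the 22 libraries (columns, stages separated by white lines), as log2(RPKM + 1) from 0 (dark) to 13 (bright). TUBB8 and TUBA1C are brightest in the oocyte columns, TUBB and the entry labelled TUBB1 (ENSMMUG00000012164) brighten from the 8-cell columns on, and morula library 2 is dark in most kinesin rows.

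The summed beta tubulin RPKM was nearly all TUBB8 in oocytes and nearly all from other entries in morulae and blastocysts. TUBB8 stood at 2552 and 1931 RPKM at GV, 1754 and 1719 at MI, and 2104, 813 and 1122 at MII. In early embryos it was at 52.2, 203 and 77.5 RPKM at the pronuclear stage, 158 and 132 at the 2-cell stage, and 28.6, 38.8 and 23.4 at the 4-cell stage. All 8 of these embryo libraries lay below all 7 oocyte libraries, and the lower level was already present in pronuclear embryos. Later, TUBB8 was at 20.7 and 79.3 RPKM at the 8-cell stage, 0.551, 1.09 and 0.83 at the morula stage, and 0.181 and 0.358 at the blastocyst stage. From MII to the 4-cell stage it fell by 5.34 on the log2(RPKM + 1) scale (SE 0.51, limma adjusted p = 4.30e-06), the mean going 44.5-fold lower, from 1346 ± 674 (SD, n = 3) to 30.3 ± 7.86 (SD, n = 3) RPKM. The step from the 4-cell to the 8-cell stage did not pass (log2 change 0.44 ± 0.58 (SE), limma adjusted p = 0.637), and the 8-cell pair enclosed the 4-cell values on both sides. From the 8-cell stage to the morula TUBB8 fell by 4.53 (SE 0.58, limma adjusted p = 9.67e-06), with no overlap, and from oocyte to blastocyst it fell by 10.38 (SE 0.51, limma adjusted p = 4.45e-11). None of these 3 calls was lost under any alternative tried, including each library left out.

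**Figure D3:**
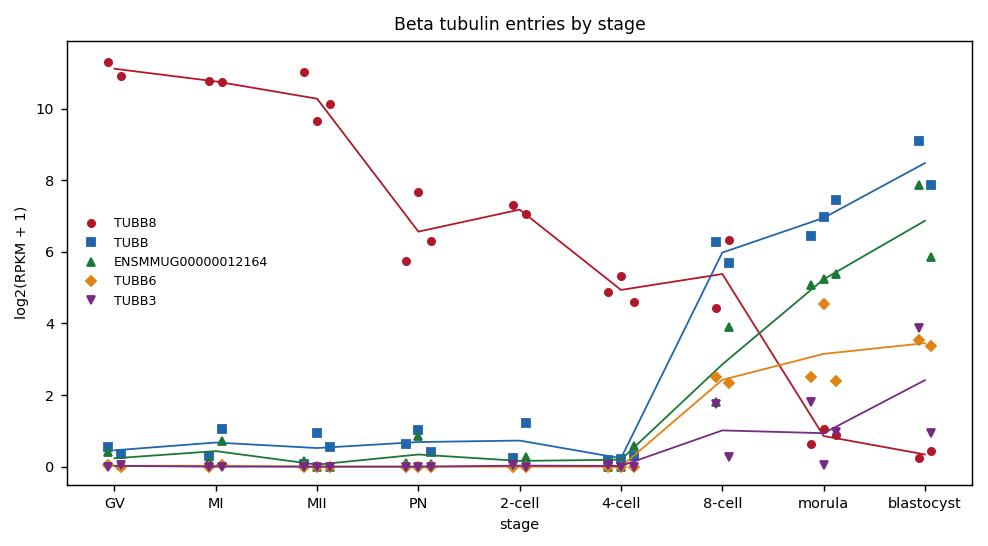
Level of 5 beta tubulin entries as log2(RPKM + 1) at the 9 stages, with 1 point per library and lines through the stage means. TUBB8 is at the top in oocytes (813 to 2552 RPKM) and near the bottom from the morula on (0.181 to 1.09 RPKM), while TUBB, ENSMMUG00000012164 and TUBB6 lie near the bottom until the 4-cell stage and above it from the 8-cell stage on.

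TUBB, the beta tubulin found in most dividing cells (ENSMMUG00000023684, chromosome 4, 30304857 to 30310098), was between 0.057 and 1.31 RPKM in all 15 libraries up to the 4-cell stage. It was at 76.8 and 50.2 RPKM at the 8-cell stage, 86.0, 124 and 173 at the morula stage, and 545 and 233 at the blastocyst stage. Every library from the 8-cell stage on was above every earlier one. TUBB rose from the 4-cell to the 8-cell stage (log2 change 5.75 ± 0.48 (SE), limma adjusted p = 5.32e-08), did not pass from 8-cell to morula (limma adjusted p = 0.155; 0.0365 under scaling, which calls it), and rose again to the blastocyst (log2 change 1.53 ± 0.48 (SE), limma adjusted p = 0.0388). From oocyte to blastocyst it rose by 7.93 on the log2 scale (SE 0.42, limma adjusted p = 1.04e-10). The morula to blastocyst call was lost without blastocyst library 1 (0.420), morula library 1 (0.112) or morula library 2 (0.0571), without any 1 of 3 libraries of other stages (0.0512 to 0.0531), under median-of-ratios scaling (0.30), with no filter (0.226), in a fit to the compared stages alone (0.294) and with a pseudocount of 0.1 (0.266), by limma adjusted p.

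ENSMMUG00000012164, the entry next to TUBB4B's neighbours, was at 0, 0 and 0.499 RPKM at the 4-cell stage and at 2.53 and 13.9 RPKM at the 8-cell stage, 32.6, 37.1 and 40.7 at the morula stage, and 233 and 57.4 at the blastocyst stage. It rose from 4-cell to 8-cell (log2 change 2.66 ± 0.57 (SE), limma adjusted p = 0.00189) and again from 8-cell to morula (log2 change 2.38 ± 0.57 (SE), limma adjusted p = 0.00416), where the morulae lay above both 8-cell embryos. The step to the blastocyst did not pass (limma adjusted p = 0.0625), and blastocyst library 1 was far above library 2. It was called on leaving out either 8-cell library (log2 change 1.63) or blastocyst library 2 (log2 change 2.64). By adjusted p from limma, the 4-cell to 8-cell call ended without 8-cell library 2 (0.0638) and in a fit to those stages alone (0.0569). The 8-cell to morula call ended without 8-cell library 1 (0.132), with a pseudocount of 0.1 (0.0802), with no filter (0.0618) and in a fit to those stages alone (0.153), by limma adjusted p. From oocyte to blastocyst it rose by 6.63 on the log2 scale (SE 0.50, limma adjusted p = 5.51e-09), with no overlap of libraries.

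TUBB6, a more broadly expressed beta tubulin, was listed at 0 in all 4-cell libraries and at no more than 0.035 RPKM in any library before the 8-cell stage. It then stood at 4.67 and 4.09 RPKM at the 8-cell stage, 4.70, 22.4 and 4.26 at the morula stage, and 10.5 and 9.37 at the blastocyst stage. Its rise from 4-cell to 8-cell passed (limma adjusted p = 5.75e-04), as did oocyte to blastocyst (limma adjusted p = 1.31e-06), and the highest value of all was in morula library 2. Without that library TUBB6 was also called higher from morula to blastocyst (limma adjusted p = 0.0290). TUBB3, the beta tubulin best known from neurons, was at most 0.042 RPKM before the 8-cell stage and at 2.38 and 0.205 RPKM at the 8-cell stage, 2.49, 0.029 and 0.947 at the morula stage, and 13.8 and 0.925 at the blastocyst stage. These late values vary widely within each stage. TUBB3 was higher in blastocysts than in oocytes (limma adjusted p = 0.00105), and lost the call without blastocyst library 1 (limma adjusted p = 0.151). The second TUBB entry, of unclear location, ranged from 0 to 0.752 RPKM up to the 8-cell stage and reached 9.21 and 1.22 in blastocysts. It passed the detection limit with 3 libraries, both blastocysts among them, so its call from oocyte to blastocyst (limma adjusted p = 4.72e-04; lost without blastocyst library 1 at 0.0678) is given as a description.

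The levels can be set side by side as shares of the summed beta tubulin RPKM. RPKM is scaled by length, but not for priming at poly(A) tails, amplification or reads split between similar genes. The shares here and for alpha tubulins below therefore compare genes only roughly. TUBB8 held 99.96 to 99.98% of the sum at GV and 99.88 to 99.99% at MII. It still held 98.1 to 99.2% in pronuclear, 98.8 to 99.75% in 2-cell and 96.5 to 98.6% in 4-cell embryos, although the sum itself went from 1932 to 2553 RPKM at GV to 24.2 to 39.9 at the 4-cell stage. The 8-cell pair was mixed, with TUBB8 at 19.2% in library 1 and 53.6% in library 2, and TUBB at 71.2% and 33.9%. In morulae TUBB8 held 0.37 to 0.59% and in blastocysts 0.02 to 0.12%. TUBB then held 67.1 to 77.9% and 67 to 77%, and ENSMMUG00000012164 18.3 to 25.7% and 19 to 28.6%. The summed level was 108 to 148 RPKM at the 8-cell stage and 302 to 814 in blastocysts, below the GV range.

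**Figure D4:**
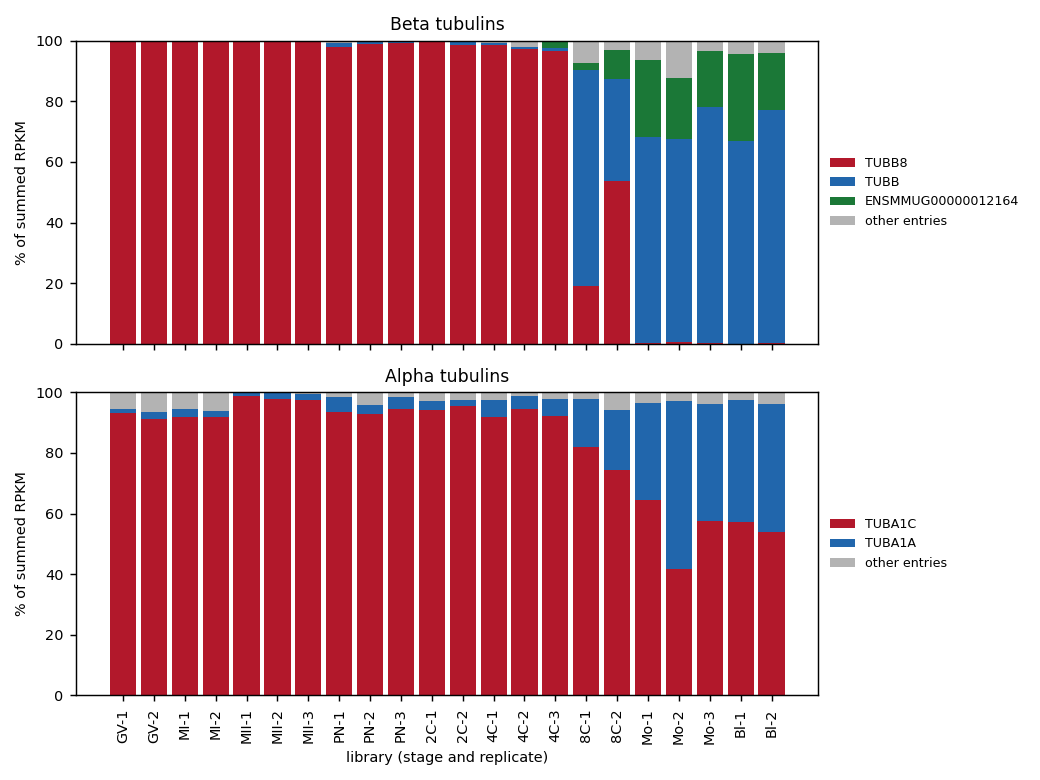
Share of the summed RPKM of beta tubulin entries (top) and alpha tubulin entries (bottom) held by the leading entries in each of the 22 libraries, in percent. TUBB8 fills 96.5% or more of the beta tubulin bar through the 4-cell stage and at most 0.59% in morulae and blastocysts, while TUBA1C fills 41.6 to 64.5% of the alpha tubulin bar in morulae.

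Among alpha tubulins TUBA1C was the leading entry in all libraries but morula library 2. TUBA1C was at 2644 and 2145 RPKM at GV, 1838 and 2161 at MI, and 6557, 6557 and 5432 at MII. In early embryos it was at 2646, 1883 and 2756 RPKM at the pronuclear stage, 1609 and 1496 at the 2-cell stage, and 1078, 1364 and 1085 at the 4-cell stage. The MII libraries lay above all others in the study, and MII to 4-cell was a fall of 2.40 on the log2 scale (SE 0.39, limma adjusted p = 5.48e-04), with no overlap. The step up from GV to MII did not pass (log2 change 1.37 ± 0.43 (SE), limma adjusted p = 0.0521), although both GV libraries lay below all 3 MII ones. It did pass under scaling (0.029), with the 5 RPKM filter (0.0422), in a fit to these stages alone (0.0213), and without morula library 2 (0.00803), morula library 3 (0.0437), pronuclear library 2 (0.0489), blastocyst library 1 (0.0286) or blastocyst library 2 (0.0287), all limma adjusted p.

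Later, TUBA1C was at 1355 and 1105 RPKM at the 8-cell stage, 545, 266 and 648 at the morula stage, and 809.7 and 301 at the blastocyst stage. It fell from 8-cell to morula (log2 change -1.42 ± 0.43 (SE), limma adjusted p = 0.0195) and from oocyte to blastocyst (log2 change -2.64 ± 0.38 (SE), limma adjusted p = 1.48e-05). The 8-cell to morula call was lost without 8-cell library 1 (0.115) or 8-cell library 2 (0.0511), under median-of-ratios scaling (0.128), with no filter (0.175) and in a fit to the compared stages alone (0.200), by limma adjusted p. TUBA1A, which may include alpha-1B, was at 36.9 and 53.1 RPKM at GV, 52.4 and 50.4 at MI, and 59.4, 134 and 114 at MII. Its level was 143, 60.9 and 122 RPKM at the pronuclear stage, 53.4 and 30.6 at the 2-cell stage, and 63.1, 60.6 and 67.5 at the 4-cell stage, and then 267 and 294 RPKM at the 8-cell stage, 269.5, 357 and 439 at the morula stage, and 567 and 236 at the blastocyst stage. All 7 libraries from the 8-cell stage on lay above all earlier ones. TUBA1A rose from 4-cell to 8-cell (log2 change 2.12 ± 0.48 (SE), limma adjusted p = 0.00311) and from oocyte to blastocyst (log2 change 2.58 ± 0.43 (SE), limma adjusted p = 6.80e-05), with the first of these lost with no filter (limma adjusted p = 0.0633). TUBA1C held 91.2 to 98.8% of the alpha tubulin sum in every library through the 4-cell stage, 74.3 to 81.8% at the 8-cell stage and 54 to 57.4% in blastocysts. TUBA1A held 31.9 to 55.7% in morulae.

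Of the 8 alpha tubulin entries, TUBA4A and TUBAL3 were called lower from GV to MII, and 4 were lower at an unadjusted limma p under 0.05. TUBA4A was at 20.6 and 54.0 RPKM at GV, 18.0 and 27.4 at MI, and 2.83, 0.228 and 3.27 at MII, and TUBAL3 at 97.2 and 44.0 RPKM at GV, 65.7 and 52.7 at MI, and 7.95, 5.27 and 10.6 at MII. Both were lower in all 3 MII libraries than in all GV and MI libraries. TUBA4A fell from GV to MII (log2 change -3.67 ± 0.72 (SE), limma adjusted p = 0.00394), as did TUBAL3 (log2 change -2.94 ± 0.54 (SE), limma adjusted p = 0.00249). For TUBA4A the call was lost without GV library 2 (0.0754), with no filter (0.0805) and in a fit to the compared stages alone (0.0615), by limma adjusted p. For TUBAL3 it was lost without GV library 1 (0.0793) and with no filter (0.0639), by limma adjusted p. TUBAL3 was then at 2.94 and 11.4 RPKM at the 8-cell stage, 0.035, 0.055 and 0 at the morula stage, and 0.046 and 0 at the blastocyst stage, falling from 8-cell to morula (log2 change -2.76 ± 0.54 (SE), limma adjusted p = 7.59e-04; lost in a fit to those stages alone, adjusted p = 0.0667). TUBA4A was at 0.781 and 12.9 RPKM at the 8-cell stage, 0.153, 0.024 and 1.24 at the morula stage, and 0.161 and 0 at the blastocyst stage, so that 8-cell library 2 stood above every other embryo. Both were lower in blastocysts than in oocytes (limma adjusted p = 1.46e-04 for TUBA4A and 9.62e-08 for TUBAL3). TUBAL3 passed the detection limit through no library after the 8-cell stage, so its calls in morulae and blastocysts are descriptions. TUBA3E went the other way, from 0 to 0.707 RPKM in oocytes to 7.44 and 8.25 in blastocysts (limma adjusted p = 2.75e-05).

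TUBA3C was at 4.04, 3.26 and 3.38 RPKM at the 4-cell stage and 9.14 and 33.8 at the 8-cell stage, and rose between these stages (log2 change 2.05 ± 0.62 (SE), limma adjusted p = 0.0206), with 8-cell library 2 far above library 1. The adjusted p rose past the threshold without 4-cell library 3 (0.0509) or 8-cell library 2 (0.285), with no filter (0.150) and in a fit to the compared stages alone (0.0754), by limma adjusted p. TUBA3E was called higher from 8-cell to morula (limma adjusted p = 0.0313) although the libraries overlap, at 3.51 and 0.07 RPKM against 4.72, 8.22 and 2.89. This step missed the threshold without 8-cell library 2 (0.655) or morula library 2 (0.102), with no filter (0.187), in a fit to the compared stages alone (0.416) and with a pseudocount of 0.1 (0.0718), by limma adjusted p. TUBA8 and the second TUBA1C entry were called in none of the 6 comparisons by limma, and without morula library 2 TUBA8 was called lower from GV to MII (limma adjusted p = 0.0182) and higher from 4-cell to 8-cell (0.0131).

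Gamma tubulin and its complex were measured at low levels. TUBG1 was at 6.83 and 4.46 RPKM at GV, 9.42 and 7.95 at MI, and 2.23, 3.15 and 0.739 at MII. In embryos it was at 5.38, 9.05 and 4.16 RPKM at the pronuclear stage, 8.94 and 3.17 at the 2-cell stage, and 3.35, 2.74 and 3.49 at the 4-cell stage. Afterwards it was at 1.17 and 1.64 RPKM at the 8-cell stage, 2.15, 0.013 and 3.11 at the morula stage, and 16.0 and 7.31 at the blastocyst stage. Both blastocysts lay above all morulae, and TUBG1 rose from morula to blastocyst (log2 change 2.33 ± 0.58 (SE), limma adjusted p = 0.0101). The call did not hold without blastocyst library 1 (0.151), with no filter (0.114) and in a fit to the compared stages alone (0.283), by limma adjusted p. Oocyte to blastocyst did not pass (limma adjusted p = 0.0959; called under scaling at 0.021 and without morula library 2 at 0.0425). TUBGCP2, a core part of the gamma tubulin complex, was at 0.3, 0 and 0 RPKM in morulae and 5.33 and 1.20 in blastocysts, and passed (limma adjusted p = 0.0167). That call ended without blastocyst library 1 (limma adjusted p = 0.32), with no filter (0.156) and in a fit to those stages alone (0.232). TUBGCP4 was at 5.52 and 2.50 RPKM in 8-cell embryos and at 0.314, 0 and 1.28 in morulae (limma adjusted p = 0.0137), a call lost without 8-cell library 1 (0.148), with no filter (0.141) and in a fit to those stages alone (0.149). Without morula library 2 it was called higher from MII to 4-cell (limma adjusted p = 0.0489), and the TUBGCP5 entry ENSMMUG00000005533 from 8-cell to morula (0.00279) and from oocyte to blastocyst (0.0458). TUBGCP3, here a 670 bp entry (IMMRNTR3065), ranged from 0.517 to 6.78 RPKM in oocytes and was listed at 0 in all 8-cell and morula libraries, with no call by limma in the 6 comparisons.

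TUBE1, the epsilon tubulin of centrioles, was at 13.4, 15.7 and 16.7 RPKM at MII, 22.2, 2.92 and 25.0 at the pronuclear stage, and 19.5 and 3.11 at the 2-cell stage. Its next values were 16.4, 12.1 and 18.9 RPKM at the 4-cell stage, 0.336 and 0.264 at the 8-cell stage, and 10.3, 0 and 3.96 at the morula stage, and at 11.2 and 7.43 RPKM at the blastocyst stage. The 8-cell pair lay below every other library except morula library 2, and the fall from 4-cell to 8-cell passed (log2 change -3.67 ± 0.86 (SE), limma adjusted p = 0.00401; lost with no filter at 0.0563). The step from 8-cell to morula passed without morula library 2 (limma adjusted p = 0.0185) and not with it (0.209). TUBD1, the delta tubulin, was at 17.8 and 18.7 RPKM at GV, 32.9 and 31.5 at MI, and 6.67, 5.25 and 3.89 at MII, and all MII values lay below all GV and MI values. Embryos ranged from 0.756 to 23.3 RPKM, and limma called TUBD1 in none of the 6 comparisons (GV to MII passed only in a fit to those stages alone, limma adjusted p = 0.0287).

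Among spindle kinesins, a group highest in oocytes and cleavage embryos was lower in blastocysts. KIF20B, a cytokinesis kinesin with the highest mean of all kinesins here, was at 88.6 and 91.5 RPKM at GV, 144 and 139 at MI, and 212, 293 and 195 at MII. In embryos it was at 269, 106 and 209 RPKM at the pronuclear stage, 163 and 119 at the 2-cell stage, and 139, 193 and 244 at the 4-cell stage, and 84.2 and 55.5 RPKM at the 8-cell stage, 58.7, 22.2 and 59.0 at the morula stage, and 21.7 and 27.1 at the blastocyst stage. From the 8-cell stage on all 7 libraries lay below all earlier ones. KIF20B fell from 4-cell to 8-cell (log2 change -1.44 ± 0.48 (SE), limma adjusted p = 0.0352) and from oocyte to blastocyst (log2 change -2.51 ± 0.42 (SE), limma adjusted p = 8.66e-05). The 4-cell to 8-cell call was lost without 4-cell library 2 (0.0737), 4-cell library 3 (0.116), 8-cell library 1 (0.0582) or 8-cell library 2 (0.204), with no filter (0.230) and in a fit to the compared stages alone (0.0528), by limma adjusted p. All 3 MII libraries exceeded both GV ones, but that difference did not pass (log2 change 1.34 ± 0.48 (SE), limma adjusted p = 0.0887; called under scaling at 0.0297, in a fit to those stages alone at 0.0356, and without morula library 2 at 0.0222). The second KIF20B entry went from 5.08 to 18.3 RPKM in oocytes to 0 in each morula and blastocyst library.

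KIF15, which helps KIF11 keep the spindle bipolar, was at 55.7 and 56.4 RPKM at GV, 69.4 and 68.8 at MI, and 111, 143 and 79.4 at MII. Its late values were 30.1 and 47.6 RPKM at the 8-cell stage, 23.1, 0.207 and 24.7 at the morula stage, and 15.4 and 14.5 at the blastocyst stage. Morula library 2 stood far below the other morulae, and both blastocysts were below all oocytes. KIF15 fell from oocyte to blastocyst (log2 change -2.25 ± 0.77 (SE), limma adjusted p = 0.0230). KIF4A, a chromosome arm motor, was at 35.5 and 42.0 RPKM at GV, 48.6 and 41.9 at MI, and 71.2, 91.1 and 56.5 at MII. Late embryos had 18.1 and 14.8 RPKM at the 8-cell stage, 5.47, 0.106 and 7.08 at the morula stage, and 11.4 and 8.74 at the blastocyst stage of KIF4A. It fell from 8-cell to morula (log2 change -2.17 ± 0.61 (SE), limma adjusted p = 0.0134) and from oocyte to blastocyst (log2 change -2.21 ± 0.54 (SE), limma adjusted p = 0.00261), again with no overlap. KIF14, a midbody kinesin, was at 10.1 and 14.5 RPKM at GV, 17.6 and 9.37 at MI, and 18.8, 19.7 and 15.6 at MII. In late embryos KIF14 was at 7.83 and 16.9 RPKM at the 8-cell stage, 2.88, 0.68 and 2.47 at the morula stage, and 2.69 and 6.76 at the blastocyst stage. All morulae lay below both 8-cell embryos and all oocytes. KIF14 fell from 8-cell to morula (log2 change -2.15 ± 0.51 (SE), limma adjusted p = 0.00376) and from oocyte to blastocyst (log2 change -1.50 ± 0.45 (SE), limma adjusted p = 0.0106). KIF18A, which limits chromosome movement at metaphase, was at 18.2 and 18.9 RPKM at GV, 24.3 and 14.8 at MI, and 38.1, 48.0 and 39.3 at MII. Later its values were 60.1 and 13.7 RPKM at the 8-cell stage, 25.6, 12.2 and 36.6 at the morula stage, and 5.66 and 8.22 at the blastocyst stage. The 8-cell pair was far apart, and both blastocysts lay below all earlier libraries. KIF18A fell from oocyte to blastocyst (log2 change -1.70 ± 0.52 (SE), limma adjusted p = 0.0119).

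These calls rest on pairs of late embryos. From oocyte to blastocyst, KIF15 lost its call without blastocyst library 1 (0.116) or blastocyst library 2 (0.116), under median-of-ratios scaling (0.118), with no filter (0.135) and with a pseudocount of 0.1 (0.0840), by limma adjusted p. KIF14 and KIF18A lost theirs without blastocyst library 1 (0.229 and 0.128), under scaling (0.110 and 0.0644) and with no filter (0.0901 and 0.0935), by limma adjusted p. From 8-cell to morula, KIF4A lost its call without 8-cell library 1 (0.0802), with no filter (0.135) and in a fit to the compared stages alone (0.334), by limma adjusted p. KIF14 lost this step without 8-cell library 2 (0.0678), with no filter (0.0634) and in a fit to those stages alone (0.130), by limma adjusted p. Without morula library 2, KIF4A was also called lower from MII to 4-cell (limma adjusted p = 0.0369) and from 4-cell to 8-cell (0.0351), and KIF18A lower from morula to blastocyst (0.0238; 0.00623 under scaling). KIF4B, close in sequence to KIF4A, was at 2.96 to 10.2 RPKM in oocytes and 2.32 and 0.855 in blastocysts, and was called lower in the same 2 comparisons (limma adjusted p = 0.0431 and 0.0348). The first of these was lost without 8-cell library 1 (0.209), 8-cell library 2 (0.0696) or morula library 2 (0.131), without any 1 of 7 libraries of other stages (0.0518 to 0.0560), under median-of-ratios scaling (0.0613), with no filter (0.242) and in a fit to the compared stages alone (0.157), by limma adjusted p. The second was lost without blastocyst library 2 (0.335), GV library 1 (0.0527), GV library 2 (0.0560), MI library 1 (0.0516), MI library 2 (0.0572) or MII library 2 (0.0517), under median-of-ratios scaling (0.284), with no filter (0.195) and with a pseudocount of 0.1 (0.0945), by limma adjusted p.

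The short second KIF11 entry was at 0, 0 and 1.96 RPKM at the 4-cell stage, 4.21 and 8.27 at the 8-cell stage and 0 in each morula and blastocyst. It was called higher at 8-cell (limma adjusted p = 0.0135), lower at morula (0.00295) and lower from oocyte to blastocyst (0.0499). Both calls as lower are descriptions, since the entry passed the detection limit through no library after the 8-cell stage. The first call was lost without 4-cell library 1 (0.0531), 4-cell library 2 (0.0512) or 8-cell library 2 (0.115), with no filter (0.125) and in a fit to the compared stages alone (0.0720), by limma adjusted p. The last was lost without blastocyst library 1 (0.192), blastocyst library 2 (0.176), GV library 2 (0.0966), MI library 1 (0.0743), MI library 2 (0.0711), MII library 1 (0.0673) or MII library 2 (0.0739), without any 1 of 8 libraries of other stages (0.0510 to 0.0573), under median-of-ratios scaling (0.113) and with no filter (0.226), by limma adjusted p. The main KIF11 entry, the pole-separating motor of mitosis, was at 9.78 and 8.49 RPKM at GV, 11.8 and 6.07 at MI, and 9.82, 11.4 and 14.4 at MII. Its late values were 3.88 and 3.52 RPKM at the 8-cell stage, 7.49, 0.019 and 8.10 at the morula stage, and 6.14 and 7.79 at the blastocyst stage. Its lowest value was in morula library 2, and limma called it in none of the 6 comparisons (oocyte to blastocyst log2 change -0.43 ± 0.63 (SE), limma adjusted p = 0.615).

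**Figure D5:**
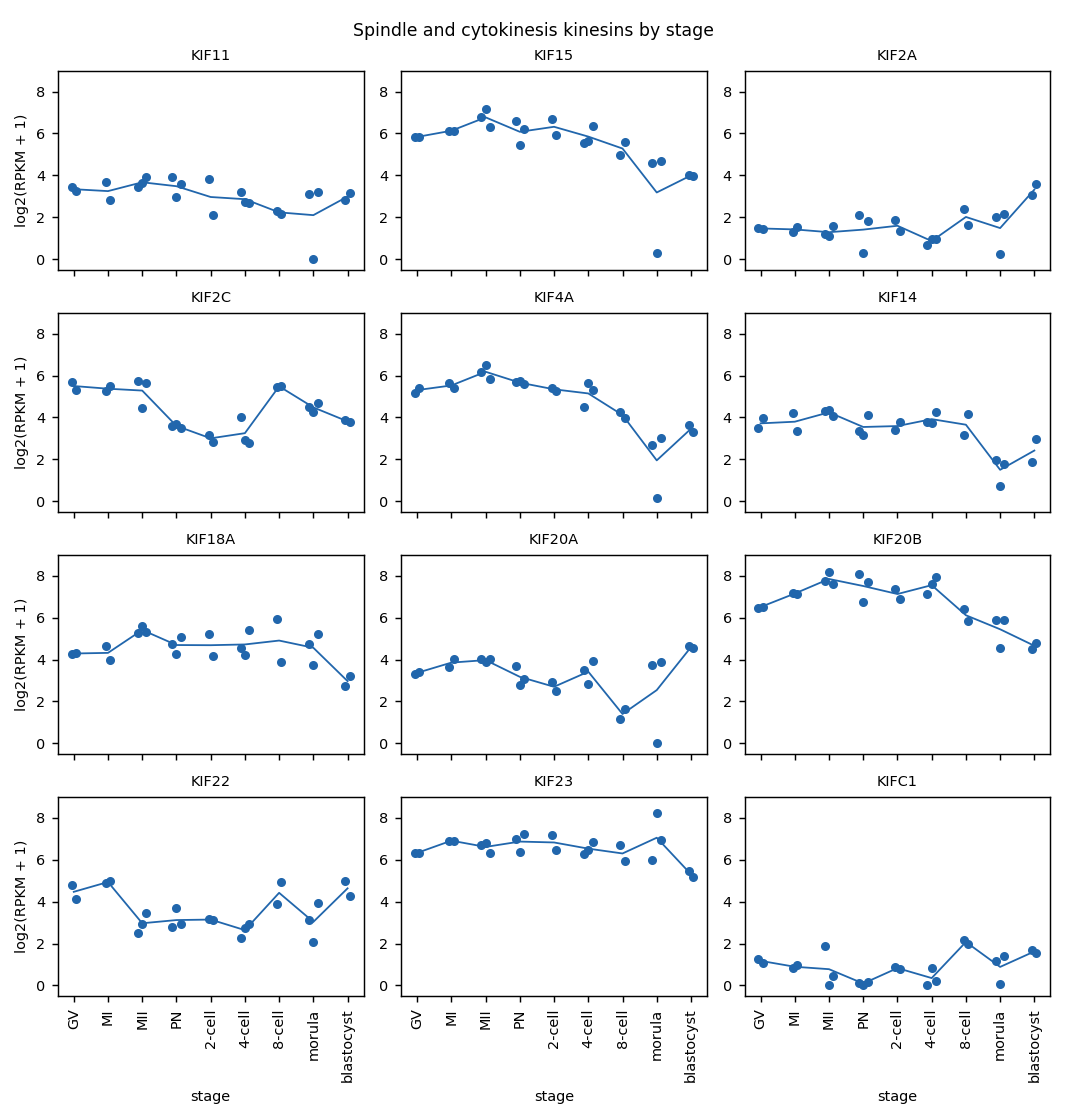
Level of 12 spindle and cytokinesis kinesins as log2(RPKM + 1) at the 9 stages, with 1 point per library and lines through stage means. KIF20B, KIF15, KIF4A and KIF18A have their highest points or means in MII oocytes or, for KIF18A, in 8-cell library 1, KIF2C dips between the pronuclear and 4-cell stages, and morula library 2 is the low point for KIF11, KIF15, KIF4A and KIF20A and the high point for KIF23.

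KIF2C, which removes tubulin from microtubule ends at kinetochores, had a different course, with a gap between fertilisation and the 8-cell stage. It was at 50.0 and 39.2 RPKM at GV, 37.3 and 43.8 at MI, and 53.1, 20.8 and 49.1 at MII. It went on at 10.9, 12.1 and 10.4 RPKM at the pronuclear stage, 8.01 and 6.14 at the 2-cell stage, and 15.3, 6.57 and 5.96 at the 4-cell stage, followed by 43.5 and 44.2 RPKM at the 8-cell stage, 21.8, 18.0 and 24.7 at the morula stage, and 13.5 and 12.6 at the blastocyst stage. All 8 libraries from pronuclear to 4-cell were below all oocytes and below both 8-cell embryos. KIF2C fell from MII to 4-cell (log2 change -2.03 ± 0.41 (SE), limma adjusted p = 0.00372), rose from 4-cell to 8-cell (log2 change 2.24 ± 0.46 (SE), limma adjusted p = 0.00131), and was lower in blastocysts than in oocytes (log2 change -1.57 ± 0.40 (SE), limma adjusted p = 0.00375). The MII to 4-cell call was lost with no filter (0.114) and in a fit to those stages alone (0.0766), and the oocyte to blastocyst call under scaling (0.0866), by limma adjusted p.

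KIF22 and KIFC1 also rose at the 8-cell stage. KIF22, a chromosome arm motor, was at 27.1 and 16.5 RPKM at GV, 29.0 and 30.4 at MI, and 4.74, 6.53 and 10.1 at MII. Its embryo values were 3.83, 5.67 and 6.54 RPKM at the 4-cell stage and 13.8 and 30.2 at the 8-cell stage, and it rose between them (log2 change 1.78 ± 0.54 (SE), limma adjusted p = 0.0206). This call was lost without 4-cell library 1 (0.0694) or 8-cell library 2 (0.201), with no filter (0.156) and in a fit to the compared stages alone (0.0607), by limma adjusted p. MII libraries lay below all GV and MI ones, which did not pass from GV to MII (limma adjusted p = 0.0887, and 0.0324 without morula library 2). From 8-cell to morula KIF22 was called lower only under alternatives, among them the replicate block (limma adjusted p = 0.0463) and without morula library 3 (0.0201). In the same settings it was called higher from morula to blastocyst (limma adjusted p = 0.0385 and 0.0156), as with the 5 RPKM filter (0.0472). KIFC1, a minus-end motor that focuses spindle poles, was at 0, 0.809 and 0.15 RPKM at the 4-cell stage, 3.49 and 2.95 at the 8-cell stage, and 1.25, 0.042 and 1.69 at the morula stage, with log2 change 1.72 ± 0.47 (SE), limma adjusted p = 0.0116 from 4-cell to 8-cell, lost without 8-cell library 1 (0.0727) and with no filter (0.12). Oocytes had 0 to 2.66 RPKM of KIFC1, so its level was low throughout.

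KIF2A, KIF20A and KIF23 followed other courses. KIF2A, a pole-side microtubule depolymerase, was, with all 22 libraries, the only spindle kinesin entry of 15 called higher in blastocysts than in oocytes (log2 change 1.93 ± 0.49 (SE), limma adjusted p = 0.00371). It was at 1.28, 1.16 and 1.95 RPKM at MII, 3.09, 0.186 and 3.49 at the morula stage, and 7.27 and 11.1 at the blastocyst stage, and also rose from morula to blastocyst (log2 change 1.84 ± 0.56 (SE), limma adjusted p = 0.0335). It lost this call without blastocyst library 1 (0.0879), blastocyst library 2 (0.203) or morula library 2 (0.133), under median-of-ratios scaling (0.0510), with no filter (0.192), in a fit to the compared stages alone (0.356) and with a pseudocount of 0.1 (0.0990), by limma adjusted p. Its oocyte to blastocyst call was lost without blastocyst library 2 (limma adjusted p = 0.062). KIF20A, which works at the central spindle, was at 15.2, 13.8 and 15.2 RPKM at MII, 10.3, 6.20 and 14.1 at the 4-cell stage, and 1.24 and 2.11 at the 8-cell stage. It was then at 12.5, 0 and 13.6 RPKM at the morula stage and 24.1 and 22.3 at the blastocyst stage, so that the 8-cell pair and morula library 2 lay below all other libraries. With all libraries its 4-cell to 8-cell and 8-cell to morula steps did not pass (limma adjusted p = 0.0665 and 0.320). Without morula library 2 both did (6.07e-04 and 3.38e-04), down and then up. The first also passed without morula library 3 (0.0468) and in a fit to those stages alone (0.0447). From oocyte to blastocyst KIF20A was called higher without morula library 2 (limma adjusted p = 0.0455) and in a fit to those stages alone (0.00976).

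KIF23, a motor of the centralspindlin complex needed for cytokinesis, was at 79.6 and 79.3 RPKM at GV, 119.8 and 119.5 at MI, and 104, 109 and 80.2 at MII. Its late values were 102 and 59.5 RPKM at the 8-cell stage, 61.6, 299 and 124 at the morula stage, and 42.8 and 34.9 at the blastocyst stage. Morula library 2, in which 10 of the 15 spindle kinesin entries were under 1 RPKM against 2 and 3 in the other morulae, had the highest KIF23 of all 22 libraries. KIF23 fell from morula to blastocyst (log2 change -1.74 ± 0.52 (SE), limma adjusted p = 0.0291) and from oocyte to blastocyst (log2 change -1.31 ± 0.46 (SE), limma adjusted p = 0.0255). The morula to blastocyst call was lost without blastocyst library 1 (0.0999), blastocyst library 2 (0.151) or morula library 2 (0.0751), with no filter (0.195) and in a fit to the compared stages alone (0.390), by limma adjusted p. Its oocyte to blastocyst call was lost without blastocyst library 1 (0.0863) or 2 (0.156), with no filter (0.168) and under scaling (0.365), by limma adjusted p.

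Among cargo kinesins, KIF5B, the conventional kinesin-1 heavy chain, had the highest level. It was at 45.8 and 42.7 RPKM at GV, 48.4 and 64.5 at MI, and 118, 143 and 103 at MII. In embryos it was at 131, 51.7 and 103 RPKM at the pronuclear stage, 107 and 51.8 at the 2-cell stage, and 52.1, 68.8 and 121 at the 4-cell stage, and 25.2 and 30.3 RPKM at the 8-cell stage, 19.9, 44.0 and 21.1 at the morula stage, and 32.1 and 47.0 at the blastocyst stage. All MII libraries were above all GV and MI libraries, and 8-cell embryos were below all earlier ones. The GV to MII step did not pass (log2 change 1.42 ± 0.50 (SE), limma adjusted p = 0.0816; called in a fit to those stages alone at 0.023 and without morula library 2 at 0.0327), while the fall from 4-cell to 8-cell did (log2 change -1.42 ± 0.50 (SE), limma adjusted p = 0.0450). That call ended without 4-cell library 2 (0.0697), 4-cell library 3 (0.171), 8-cell library 1 (0.191) or 8-cell library 2 (0.0963), without any 1 of 8 libraries of other stages (0.0526 to 0.0584), under median-of-ratios scaling (0.124), with no filter (0.261), in a fit to the compared stages alone (0.0825) and with a pseudocount of 0.1 (0.0546), by limma adjusted p.

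The kinesin-2 motors KIF3A and KIF3B, which pair to carry cargo in cytoplasm and cilia, were both lower in blastocysts than in oocytes. KIF3A was at 17.6 and 28.9 RPKM at GV, 20.3 and 19.1 at MI, and 55.7, 57.2 and 42.6 at MII, with its highest single value, 78.3 RPKM, in 2-cell library 2. From there it was at 19.6 and 36.7 RPKM at the 8-cell stage, 2.78, 0.133 and 4.82 at the morula stage, and 2.65 and 6.19 at the blastocyst stage, falling from 8-cell to morula (log2 change -3.25 ± 0.56 (SE), limma adjusted p = 2.56e-04; lost in a fit to those stages alone at 0.12) and from oocyte to blastocyst (log2 change -2.52 ± 0.50 (SE), limma adjusted p = 3.93e-04). KIF3B was at 8.24 and 7.67 RPKM at GV, 8.98 and 5.72 at MI, and 8.17, 6.79 and 4.59 at MII. In late embryos it was at 1.54 and 8.15 RPKM at the 8-cell stage, 1.52, 0.00828 and 2.10 at the morula stage, and 0.536 and 2.37 at the blastocyst stage. With all libraries KIF3B was not called from 8-cell to morula. Blastocysts were below all oocytes, and KIF3B fell from oocyte to blastocyst (log2 change -1.84 ± 0.53 (SE), limma adjusted p = 0.00830). That call was lost without blastocyst library 1 (0.185), with no filter (0.0708) and under scaling (0.0704), by limma adjusted p. KIF3C, a further kinesin-2 motor, stayed at 3.03 RPKM or less and was not called by limma in the 6 comparisons. From 8-cell to morula it was called lower under scaling (limma adjusted p = 0.0180), with a pseudocount of 0.1 (0.0102) and without any 1 of 6 libraries of other stages, and from oocyte to blastocyst in a fit to those stages alone (0.0258).

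KIF13B, a kinesin-3 motor, was at 4.65 to 8.56 RPKM in oocytes and at 4.04 and 2.69 RPKM at the 8-cell stage, 0.433, 0.017 and 0.332 at the morula stage, and 0.646 and 2.23 at the blastocyst stage. It fell from 8-cell to morula (log2 change -1.79 ± 0.44 (SE), limma adjusted p = 0.00545; lost without 8-cell library 1 at 0.0514 and with no filter at 0.0839) and from oocyte to blastocyst (log2 change -1.77 ± 0.39 (SE), limma adjusted p = 0.00118; lost without blastocyst library 1 at 0.0629). KIF21A, which acts at microtubule plus ends, was at most 0.291 RPKM in the 15 libraries up to the 4-cell stage, where it was listed at 0 in each library. It measured 4.37 and 5.05 RPKM at the 8-cell stage, 1.80, 0 and 2.20 at the morula stage, and 5.88 and 7.37 at the blastocyst stage. It was called higher at 8-cell (limma adjusted p = 6.41e-05), lower in morulae (log2 change -1.46 ± 0.37 (SE), limma adjusted p = 0.00705) and higher in blastocysts (log2 change 1.87 ± 0.37 (SE), limma adjusted p = 0.0020). Both morula calls were lost in a fit to the compared stages alone (0.286 and 0.275) and with a pseudocount of 0.1 (0.0635 and 0.0511), the first also with no filter (0.0893). KIF21A was the only cargo kinesin entry of 14 called higher in blastocysts than in oocytes (limma adjusted p = 1.08e-06). KIF1C (IMMRNTR6103) went from 1.42 to 4.83 RPKM in oocytes to 0 to 1.13 in pronuclear embryos and 0 to 0.543 at the 4-cell stage. It passed the detection limit through oocyte and pronuclear libraries alone. Its call as lower from MII to 4-cell (limma adjusted p = 0.00251, lost with no filter at 0.0789) is therefore given as a description.

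KIF21B (IMMRNTR1616) ranged from 0.086 to 13.1 RPKM in oocytes and was listed at 0 in both blastocysts (limma adjusted p = 9.71e-04). KIF13A, listed at 0 in each morula and at 2.54 and 1.50 RPKM in 8-cell embryos, was called lower in morulae (limma adjusted p = 0.00328, lost with no filter at 0.0549). KIF21B and KIF13A passed the detection limit through no library after the 8-cell stage, so both calls are descriptions. The KIF26B entry IMMRNTR1896 was listed at 0 in each MII and each 8-cell library and at 1.64, 1.31 and 0.701 RPKM at the 4-cell stage. It passed the detection limit through 4-cell libraries alone, so its difference from both neighbouring groups is given without a test. It is the 1 member counted above as higher from MII to 4-cell and 1 of the 5 counted as lower from 4-cell to 8-cell.

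The kinesins of cilia and of other roles were low, apart from KIF9, a motor of the ciliary axoneme. The KIF9 entry ENSMMUG00000003341 spans 2439 bp of chromosome 2 (89253670 to 89256108), a part of the gene. It was at 23.5 and 31.3 RPKM at GV, 22.3 and 17.0 at MI, and 14.3, 0 and 17.4 at MII. It then stood at 0, 2.30 and 0 RPKM at the pronuclear stage, 1.74 and 4.81 at the 2-cell stage, and 0, 0.295 and 1.38 at the 4-cell stage, and at 27.9 and 19.4 RPKM at the 8-cell stage, 47.9, 0.138 and 48.1 at the morula stage, and 49.7 and 37.9 at the blastocyst stage. The 8 libraries from pronuclear to 4-cell were below both 8-cell embryos, and MII library 2 and morula library 2 stood at or near 0 beside their replicates. The rise from 4-cell to 8-cell passed (log2 change 4.06 ± 1.29 (SE), limma adjusted p = 0.0269). The adjusted p rose past the threshold without 4-cell library 1 (0.0752), 4-cell library 2 (0.0616), 8-cell library 1 (0.140) or 8-cell library 2 (0.0789), with no filter (0.159) and with a pseudocount of 0.1 (0.0578), by limma adjusted p. The second KIF9 entry (IMMRNTR5537) was at 1.90 and 0.608 RPKM at GV and 0.021 or less at MII, and was called lower (limma adjusted p = 0.0204). That call was lost without GV library 1 (0.368), MII library 1 (0.0513) or MII library 2 (0.0617), with no filter (0.174), under scaling (0.0587) and in a fit to those stages alone (0.0842).

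KIF6 was at 1.18 to 3.92 RPKM in oocytes and 0 and 0.022 in blastocysts. It passed the detection limit through no library after the 8-cell stage, so its call as lower in blastocysts (limma adjusted p = 6.29e-04) is a description. Its 4-cell to 8-cell fall, from 4.66, 1.80 and 1.90 to 1.11 and 0 RPKM, passed narrowly (limma adjusted p = 0.0477). This step missed the threshold without 4-cell library 1 (0.172), 4-cell library 3 (0.0556) or 8-cell library 2 (0.375), without any 1 of 11 libraries of other stages (0.0504 to 0.0601), with no filter (0.250) and in a fit to the compared stages alone (0.177), by limma adjusted p. KIF24, a kinesin of the centriole, was at 1.79 to 5.42 RPKM in oocytes and 0.746 and 1.29 in blastocysts (limma adjusted p = 0.0170). Its call was lost without blastocyst library 1 (0.164), with no filter (0.123), with a pseudocount of 0.1 (0.0694) and under scaling (0.131). KIF27 was at 4.21 and 6.55 RPKM at the 8-cell stage and 0.446, 0 and 0.013 at the morula stage and fell between these stages (log2 change -2.47 ± 0.62 (SE), limma adjusted p = 0.00607), lost without 8-cell library 2 (0.0578) and with no filter (0.0764). KIF25 was at 0 to 1.89 RPKM and limma called it in none of the 6 comparisons; it passed from 4-cell to 8-cell under scaling (0.0473), with a pseudocount of 0.1 (0.0433) and without morula library 2 (0.049).

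Genes that work with these motors and tubulins were followed in 4 lists. Of 35 spindle assembly and microtubule proteins tested, limma called 0 higher and 3 lower from GV to MII, against 0.342% and 8.97% of all features. From MII to 4-cell it called 0 and 4, against 3.11% and 6.09%, and from 4-cell to 8-cell 2 and 7, against 13.9% and 10.2%. From 8-cell to morula 6 and 4 were called, against 5.39% and 20.0%, and from morula to blastocyst 5 and 3, against 12.0% and 2.12%. From oocyte to blastocyst 4 and 11 were called, against 17.7% and 27.2%. Whether any of the 4 lists differs from all features was not tested. Of 20 spindle checkpoint and chromosomal passenger proteins, 1 was higher and 9 lower from oocyte to blastocyst, against 17.7% and 27.2% of all features. From 4-cell to 8-cell 1 and 4 were called, against 13.9% and 10.2%. AURKA, the kinase that activates spindle assembly, was the 1 higher from GV to MII, at 687 ± 43.3 (SD, n = 2) and 1826 ± 59.8 RPKM (SD, n = 3), with log2 change 1.41 ± 0.43 (SE) and limma adjusted p = 0.0443. It fell from 4-cell to 8-cell by 2.86 on the log2 scale (SE 0.43, limma adjusted p = 6.64e-05). CENPE, a kinetochore kinesin whose symbol falls outside the rule, was at 253 RPKM on average in oocytes and 19.3 in blastocysts, a fall of 3.43 (SE 0.42, limma adjusted p = 2.50e-06). Of 22 tubulin folding and modifying proteins 4 were higher and 3 lower from oocyte to blastocyst, against 17.7% and 27.2% of all features. In this comparison TBCC, a tubulin folding cofactor, fell by 2.95 (SE 0.58, limma adjusted p = 3.80e-04). Of 11 kinesin light chains and adaptors 0 were higher and 4 lower from oocyte to blastocyst, against the same 17.7% and 27.2%. KIFAP3, the partner of KIF3A and KIF3B, fell from 4-cell to 8-cell by 2.38 (SE 0.47, limma adjusted p = 8.76e-04) and rose from morula to blastocyst (log2 change 2.12 ± 0.47 SE, limma adjusted p = 0.00418).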

How the data were processed

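The samples were 22 single oocytes or embryos, with RNA amplified by a SMARTer kit for low input (priming at poly(A) tails) and made into TruSeq DNA libraries, per the labels' protocols. The authors deposited RPKM values for 35468 entries, matched to samples by column title. The build is Mmul_8.0.1 per the submitters' processing notes, and the aligner and counter are not given in the sources used here. Symbols came from a name table and otherwise from the file. The members and gene lists were chosen with earlier results of these data known. Library totals were estimated from low values of entries under 200 bp, of which 356 of 450 (79.1%) lay within 0.05 of a whole read.

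Entries with at least 1 RPKM in 2 or more libraries (14312) were fitted with limma 3.58.1 (R 4.3.3) on log2(RPKM + 1), 1 mean per stage, empirical Bayes with trend and robust settings, and 2-sided Benjamini-Hochberg adjustment within each comparison. These log2 changes understate those of low genes. The fit was tested on simulated data. Alternatives were a pseudocount of 0.1, no filter, a 5 RPKM filter, median-of-ratios scaling, fits to the compared stages alone, the replicate number as a block, and each library left out. Entries described were a fixed panel, up to 4 called entries per direction and comparison whose libraries do not overlap and whose higher mean is at least 5 RPKM, and the highest of each role. Other called entries were added after their values were seen. Sequences were not analysed here. Figures used matplotlib 3.10.9.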

Additional observations from a re-analysis of the deposited data

How the results depend on the processing

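Of the 75 calls in the 6 comparisons, 38 were lost without at least 1 library, 40 with no filter, 27 in fits to the compared stages alone, 15 under scaling and 11 with a pseudocount of 0.1, while 12 were not tested under the 5 RPKM filter. No direction of a call reversed under the alternatives run. Stages of 2 or 3 libraries limit precision, and values below 1 RPKM rest on few reads. With no filter, limma called 0 members lower from GV to MII, 0 higher and 2 lower from MII to 4-cell, 5 higher and 1 lower from 4-cell to 8-cell, 0 higher and 4 lower from 8-cell to morula, 1 higher and 0 lower from morula to blastocyst, 13 lower from oocyte to blastocyst and 22 in the F test over 9 stages. Of all 35468 features, no filter gave 11 higher and 221 lower from GV to MII, and 78 and 152 from MII to 4-cell. It gave 1388 and 376 from 4-cell to 8-cell, 244 and 1679 from 8-cell to morula, and 950 and 67 from morula to blastocyst. Oocyte to blastocyst had 2797 and 2551, and the F test 6032. With the 5 RPKM filter limma called 1 member higher from GV to MII, 0 higher from MII to 4-cell and 3 lower from 4-cell to 8-cell. Of all 8761 features then tested these counts were 56, 420 and 1385. Under scaling the member counts were 2 higher from GV to MII, 3 higher and 3 lower from morula to blastocyst and 12 lower from oocyte to blastocyst. In fits to the compared stages alone they were 5 higher from GV to MII, 2 lower from 4-cell to 8-cell, 0 higher and 5 lower from 8-cell to morula, and 0 higher and 0 lower from morula to blastocyst. The matching counts over all 14312 features were 477, 968, 88 and 1159, and 392 and 19. A pseudocount of 0.1 gave 0 members higher from 8-cell to morula, and 691 of all features. Some of these settings bring fewer samples or a different number of features tested, and the cause of the differences was not tested. Leaving out each library gave 0 to 3 members higher and 1 to 5 lower from GV to MII, 1 to 2 and 4 to 5 from MII to 4-cell, 8 to 13 and 2 to 7 from 4-cell to 8-cell, 1 to 4 and 10 to 17 from 8-cell to morula, 1 to 9 and 0 to 2 from morula to blastocyst, 7 to 12 and 13 to 21 from oocyte to blastocyst, and 38 to 47 in the F test. Over all features the ranges were 8 to 172 higher and 235 to 1832 lower from GV to MII. MII to 4-cell gave 255 to 651 and 448 to 1300, and 4-cell to 8-cell 1615 to 2434 and 902 to 1967. From 8-cell to morula they were 442 to 1143 and 2485 to 2948, and from morula to blastocyst 1050 to 1921 and 99 to 443. Oocyte to blastocyst gave 1832 to 2911 and 2424 to 4234, and the F test 9089 to 10404.

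With the replicate number as a block, 3 members were lower from 4-cell to 8-cell and 0 from morula to blastocyst, and 6 calls were lost in all. Of all 14312 features, 1239 and 281 were then lower in these steps, against 1453 and 303 without the block. The numbers did not pair the samples: over 78 pairs with the same number the mean correlation of deviations was -0.002, 3 pairs exceeded 0.1, and 9 of 22 libraries correlated best with their own number.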

Other observations

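Of the 58 members, 13 had their highest stage mean at GV, 7 at MI, 10 at MII and 13 at the blastocyst stage (22.4%, 12.1%, 17.2% and 22.4%). Of all 14312 features tested the shares were 16.3%, 9.27%, 11.5% and 18.1%. Among the 35 kinesin entries 9 had their highest mean at MII, and among the 23 tubulin and TUBGCP entries 8 had it in blastocysts. These counts carry no test.

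The change from MII oocyte to pronuclear embryo was outside the comparisons tested. TUBB8 was at 813 to 2104 RPKM in MII oocytes and 52.2 to 203 in pronuclear embryos, KIF2C at 20.8 to 53.1 and 10.4 to 12.1, and KIF1C (IMMRNTR6103) at 2.35 to 4.83 and 0 to 1.13. KIF20B, KIF15 and KIF23 overlapped between these stages. TUBD1 went from 3.89 to 6.67 RPKM in MII oocytes to 9.47 to 18.8 in pronuclear embryos.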
